A study of Homo sapiens with 12 samples.

Results

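The 37 genes described here carry the interferon response and the sensing of viral nucleic acids. They were taken by name from the 19923 protein-coding genes of the deposited counts, and all 37 were found. By role they were 7 RNA and DNA sensors with their adaptor and editor, 5 transcription factors of the STAT and IRF families, 4 genes of the OAS family and 3 of the IFIT family. The rest were 3 genes of the ISG15 pathway, 7 other antiviral effectors, 5 small interferon-induced proteins, 2 members of the PARP family and the chemokine CXCL10. RNA came from SK-N-BE2 and from NGP, which are established human neuroblastoma lines with amplified MYCN and a genotype labelled WT. STM2457, a small molecule that blocks METTL3, was given for 6 days at 12 µM to SK-N-BE2 and at 1 µM to NGP, and DMSO was the control in each line. METTL3 is the enzyme that writes N6-methyladenosine onto messenger RNA. Each of the 4 groups had 3 replicates. The labels do not say that replicates were separate cultures, so the p-values measure only the spread between these samples, which may be technical.

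Cells recognise viral RNA in the cytosol through RIG-I and MDA5 (encoded by DDX58 and IFIH1), which signal through MAVS on mitochondria, and viral RNA in endosomes through TLR3. These sensors, and sensors of DNA such as IFI16, activate IRF3 and IRF7, which switch on the genes for interferons. Secreted interferon then acts through its receptors on factors of the STAT family, which with IRF9 bind the interferon-stimulated response element (ISRE) of antiviral genes, and as STAT pairs bind the gamma-activated site (GAS). Double-stranded RNA made by the cell itself can set off the same sensors, and ADAR, which edits adenosine to inosine in such RNA, keeps that response low.

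The libraries held 47242379 to 58159937 counted reads. Levels are given as reads, as CPM (counts divided by the size of the library, on a scale adjusted over all libraries) or, where genes are compared with each other, as TPM (which also divides by exon length). METTL3 RNA was itself higher with STM2457 (log2 fold change 0.52 for SK-N-BE2, 0.92 for NGP). The first NGP DMSO library stood apart from the other two on the fourth principal component (-42.0 against 29.2 and 13.1), and calls among the 37 that change without it are given with and without it. Of 7 adrenergic neuroblastoma markers, all had reads in every group, with summed levels of 1445 to 2129 CPM over all libraries, but TH was near 0 in NGP (78 reads with DMSO). Among the 37, more than 10% of the exon length is shared with another annotated gene for DDX58, IRF1, IRF3, IRF9, IFIT2, TRIM22, IFI6 and XAF1. Counting used no strand, and the partners of DDX58, TRIM22 and IFI6 lie on the same strand. Reads of an uncounted partner may be included and reads shared with a counted gene may be lost, so the values of these genes are uncertain.

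Levels differed widely among the 37 genes and between the lines. With DMSO, SK-N-BE2 had 19 of them above 1 TPM and 12 under 0.1 TPM, while NGP had 14 and 16. ADAR was the highest in both lines, with 103 ± 8.17 TPM (SD, n = 3) for SK-N-BE2 and 198 ± 49.1 for NGP. In SK-N-BE2 it was followed by IFI16 at 51.4 ± 0.619 TPM, MAVS at 28.8 ± 2.38 and IFI6 at 23.6 ± 5.5, of which MAVS and IFI6 overlapped between libraries. In NGP the next were MAVS at 37.5 ± 9.02 TPM and IRF3 at 26.8 ± 8.25, whose spreads overlapped, and then STAT2 at 12.0 ± 1.35. IFI16, second in SK-N-BE2, had no read in NGP.

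**Figure D1:**
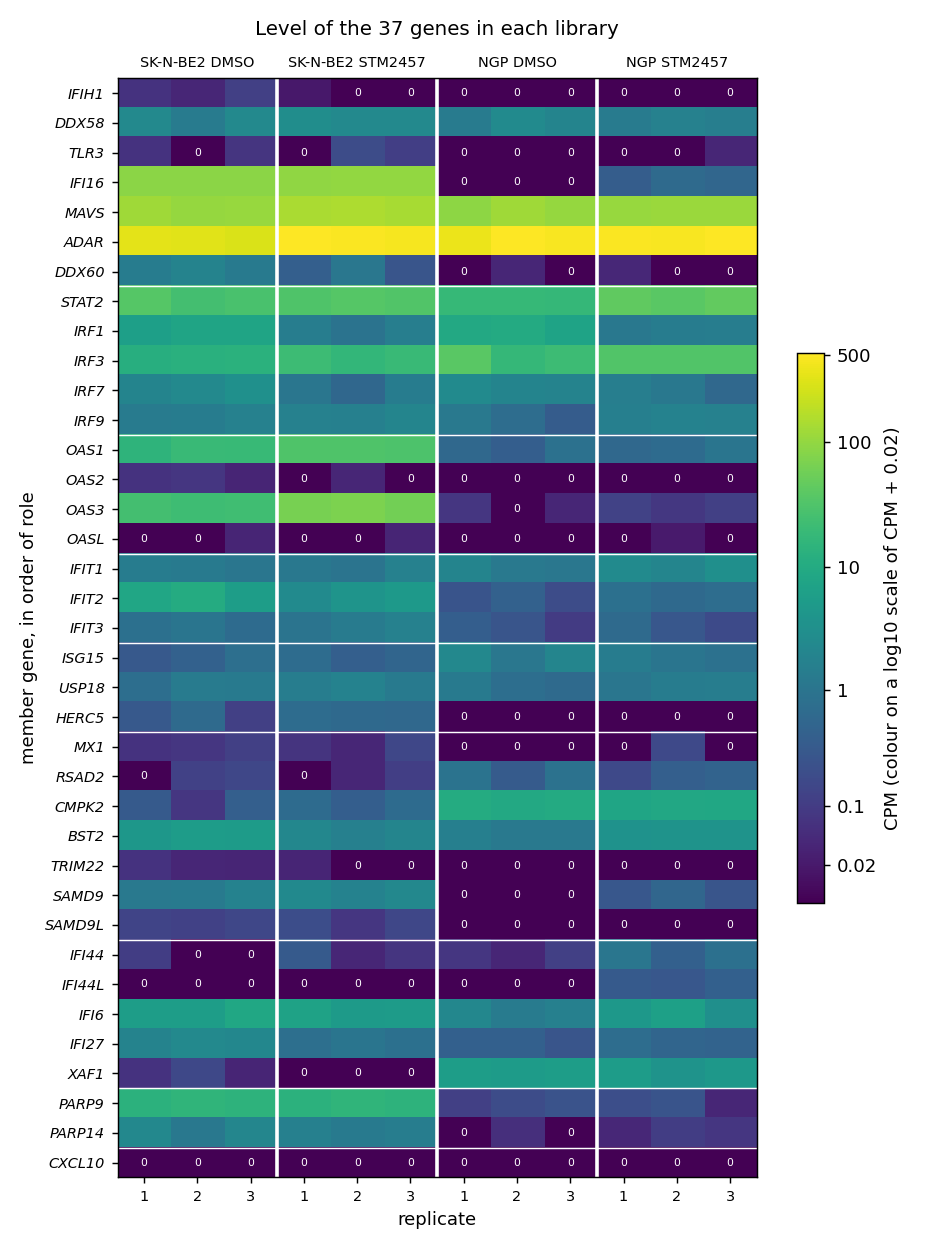
Level of each of the 37 genes (rows, in order of role) in each of the 12 libraries (columns, by group and replicate) as colour on a log10 scale of CPM, with white zeros marking libraries with 0 reads. NGP with DMSO has the most rows without reads: 12 of the 37 genes were at 0 in all 3 of its libraries, against 2 in SK-N-BE2 with DMSO.

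A gene was taken as silent in a group when its 3 libraries held 3 reads or fewer in all, which corresponds to 0.0188 to 0.0208 CPM depending on the group. By that measure 3 of the 37 genes (8.11%) were silent in SK-N-BE2 with DMSO and 14 (37.8%) in NGP with DMSO. Over all 19923 genes the silent shares were 20.8% and 23.3%. The 3 in SK-N-BE2 were OASL, IFI44L and CXCL10. The 14 in NGP were the same 3 and IFIH1, TLR3, IFI16, DDX60, OAS2, HERC5, MX1, TRIM22, SAMD9, SAMD9L and PARP14, and 12 of the 14 had no read at all. DDX60, with 2 reads, and PARP14, with 3, were the exceptions.

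With STM2457 the number of silent genes rose in SK-N-BE2 and fell in NGP. In SK-N-BE2 it was 7 (18.9%, against 21.4% of all genes). IFIH1 went from 12 reads to 1, OAS2 from 10 to 2, TRIM22 from 8 to 2 and XAF1 from 14 to 0, all too low for the test across genes. In NGP it was 9 (24.3%, against 23.0% of all genes), because IFI16, SAMD9, IFI44L, MX1 and PARP14 passed 3 reads. MX1, a dynamin-like GTPase that traps viral particles, got its 8 reads from a single library. Silent in both NGP groups were IFIH1, TLR3, DDX60, OAS2, OASL, HERC5, TRIM22, SAMD9L and CXCL10. CXCL10, an interferon-induced chemokine that draws T cells, had 0 reads in all 12 libraries. A count can rise by 2 for each read pair, so such low counts rest on still fewer fragments.

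Control cells of the lines differed in most of the genes that could be tested. Of 26 tested genes, 19 (73.1%) passed an adjusted p of 0.05 between SK-N-BE2 and NGP with DMSO, against 64.8% of the 14336 genes tested. Higher in SK-N-BE2 were 13 of them, against 33.0% of all genes, and lower were 6, against 31.8%. The median log2 difference of the 26 was 0.86, and that of all genes 0.01. Without the first NGP control library, 21 of 27 passed, and the share of all genes in that fit was not counted. A gene silent in NGP enters this test only where SK-N-BE2 is high. Line, dose series and sequencing run cannot be told apart here, because the file headers name a separate run for each line. In RNA from whole cultures, fewer expressing cells and less RNA per cell cannot be told apart either.

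**Figure D2:**
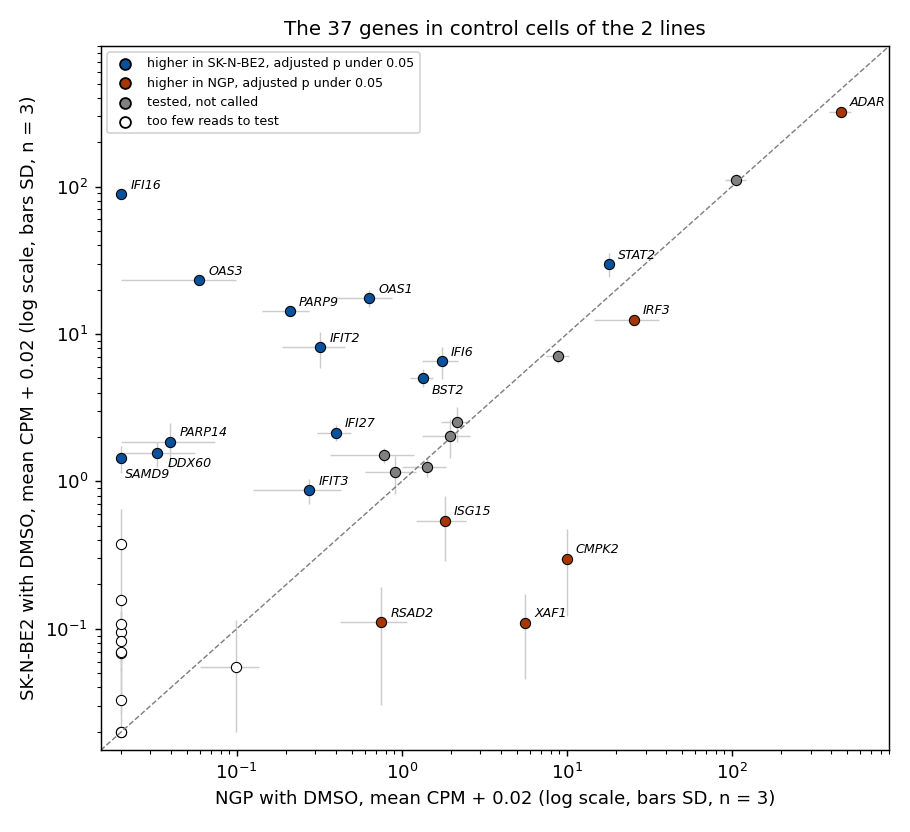
Mean level of each of the 37 genes in NGP (x axis) and SK-N-BE2 (y axis) with DMSO, both in CPM with a small offset on log scales, with bars for the SD of 3 libraries and a dashed line of equal levels. IFI16 lies farthest above the line, with 89.0 CPM in SK-N-BE2 and none in NGP, and XAF1 and CMPK2 lie farthest below it.

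Among the sensors, IFI16 (chr1:158999968-159055155) set the lines apart most. This DNA sensor of nucleus and cytosol stood at 90.0, 88.4 and 88.6 CPM in the SK-N-BE2 control libraries and at 0 reads in each NGP control library, so it was at least 4538-fold higher in SK-N-BE2. DDX60, a helicase linked to RIG-I signalling, had 82, 93 and 68 reads in SK-N-BE2 against 0, 2 and 0 in NGP, a ratio of 117 (95% counting interval 32 to 969). Both genes were separated without overlap. The editor ADAR (chr1:154582057-154628013) went the other way, at 344, 329 and 296 CPM in SK-N-BE2 against 383, 518 and 468 in NGP. The log2 difference of ADAR, with its SE, was -0.49 ± 0.15 (edgeR adjusted p = 0.0133), and the call was lost without the second NGP or the third SK-N-BE2 control library (adjusted p = 0.0519 and 0.0624). RIG-I (DDX58) and MAVS did not pass the test, at 2.02 ± 0.604 and 1.94 ± 0.627 CPM for DDX58 and at 111 ± 10.2 and 106 ± 15.2 CPM for MAVS, SK-N-BE2 first. For IFIH1 and TLR3 there were 12 and 8 reads in SK-N-BE2 against 0 in NGP, at least 3.84-fold and 2.56-fold.

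Of the 5 transcription factors, 2 differed between control cells. STAT2, a partner of IRF9, was at 35.9, 25.3 and 28.0 CPM in SK-N-BE2 against 18.1, 18.4 and 17.5 in NGP, a log2 difference of 0.74 ± 0.16 (edgeR adjusted p = 0.00199). IRF3, the factor that RNA and DNA sensors activate directly, was lower in SK-N-BE2, at 11.7, 12.7 and 13.0 CPM against 37.7, 17.3 and 21.1 in NGP. The groups did not overlap, but the first NGP library was far above the others, and the log2 difference of -1.01 (adjusted p = 0.00476) was -0.60 (adjusted p = 0.00200) without it. The exons of IRF3 share 19.3% of their length with BCL2L12 on the other strand. IRF1, IRF7 and IRF9 did not pass the test, although IRF9 did without the first NGP library (log2 difference 1.46, adjusted p = 0.00602, against 0.98 and 0.0541 with it).

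The OAS genes make oligoadenylates when they bind double-stranded RNA, and 3 of them lie side by side on chromosome 12. OAS3 (chr12:112938444-112973251) had 24.9, 21.9 and 22.9 CPM in SK-N-BE2 and 0.0794, 0 and 0.0389 CPM, or 6 reads in all, in NGP. OAS1 (chr12:112906783-112933222) had 14.9, 19.3 and 18.5 CPM in SK-N-BE2 against 0.596, 0.391 and 0.856 in NGP. Both were far higher in SK-N-BE2, by log2 differences of 9.13 ± 0.37 and 4.84 ± 0.27 (edgeR adjusted p = 1.32e-08 and 1.17e-07). Without the first NGP library, which held 4 of its 6 NGP reads, the value for OAS3 was 10.07. OAS2, the third gene of the cluster, had 10 reads in SK-N-BE2 and 0 in NGP, so the cluster was not high throughout.

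A like contrast held for the PARP pair on chromosome 3. PARP9, which works with the ubiquitin ligase DTX3L, was at 13.5, 15.3 and 14.0 CPM in SK-N-BE2 and at 0.119, 0.196 and 0.253 in NGP (log2 difference 6.23 ± 0.27, edgeR adjusted p = 1.96e-08). PARP14, a mono-ADP-ribosyltransferase, had 131, 56 and 110 reads in SK-N-BE2 against 0, 3 and 0 in NGP, a ratio of 95.1 (95% counting interval 32.2 to 464). DTX3L, which lies beside PARP9, had 2505 and 14 reads in the control groups of SK-N-BE2 and NGP.

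In the IFIT family, whose proteins bind foreign RNA, IFIT2 and IFIT3 were higher in SK-N-BE2 and IFIT1 did not pass the test. IFIT2 (chr10:89283694-89309271) was at 8.32, 10.2 and 5.75 CPM in SK-N-BE2 and at 0.258, 0.450 and 0.194 in NGP (log2 difference 4.75 ± 0.36, edgeR adjusted p = 1.02e-06). IFIT3 differed by 1.74 ± 0.49 on the log2 scale, between means of 0.851 and 0.256 CPM. IFIT1, in the same gene cluster, had means of 1.24 ± 0.191 CPM in SK-N-BE2 and 1.41 ± 0.433 in NGP.

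Effectors split in both directions. SAMD9, a cytosolic antiviral protein that restrains growth, had 70, 64 and 92 reads in SK-N-BE2 and 0 in each NGP library, at least 72.4-fold. BST2 (tetherin), which holds budding virions at the cell surface, was 3.83-fold higher in SK-N-BE2, IFI6 3.80-fold and IFI27 5.60-fold, and no library overlapped for any of them. The neighbours CMPK2 and RSAD2, which overlap at their ends on chromosome 2 and act on nucleotides, were higher in NGP. CMPK2 (chr2:6840570-6866635) had 0.332, 0.0805 and 0.421 CPM in SK-N-BE2 against 10.5, 9.19 and 10.1 in NGP (log2 difference -5.12 ± 0.38, edgeR adjusted p = 8.62e-07). RSAD2 (viperin) had 14 and 112 reads. XAF1, a promoter of cell death, showed the widest gap in that direction, with 4, 8 and 2 reads in SK-N-BE2 against 285, 269 and 299 in NGP (log2 difference -5.93 ± 0.38, adjusted p = 3.22e-07). It was -6.60 without the second SK-N-BE2 control library. The antisense gene PRAL covers 38.3% of XAF1 exons, and reads from either strand counted alike. ISG15, the ubiquitin-like protein that is attached to other proteins during the response, was 3.44-fold higher in NGP.

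Sequences of the elements that interferon-activated factors bind are shown for genes whose level the results turn on. Among RefSeq promoter windows (GRCh38.p14, 250 bases before to 50 after a start site), 30 of the 37 genes had at least 1 window and 7 had none (IFIT2, IRF3, IRF7, OAS2, OASL, TRIM22 and USP18). The ISRE core (GAAA, any 2 bases NN, then GAAA), searched on both strands with overlapping matches allowed, was present for 19 of the 30, against 4.38% of 27305 genes with a window. The GAS core TTCNNNGAA was present for 9 of the 30, against 9.38%. A match says only that the letters occur in the window. In the 30-base stretches that follow, each read 5′ to 3′ on the strand of its gene, capitals mark each whole ISRE core, or the GAS core for IRF1. Of several upstream matches, the stretch shows the one nearest the start site, which was 1 of 2 for IFI44L, BST2, OAS3, DDX60 and IFI27 and 1 of 3 for IFI6. IFI44L, SAMD9, IFI44 and IFI6 rose in NGP, BST2 rose there and fell in SK-N-BE2, OAS3 rose in SK-N-BE2, DDX60 and IFI27 fell in it, and IRF1 fell in both lines.
IFI44L, ISRE core, chr1:78620365-78620394: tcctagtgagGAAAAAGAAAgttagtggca
SAMD9, ISRE core, chr7:93118096-93118125: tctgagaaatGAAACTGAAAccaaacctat
IFI44, ISRE core on the opposite strand, chr1:78649761-78649790: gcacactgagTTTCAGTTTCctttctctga
IFI6, ISRE core, chr1:27672266-27672295: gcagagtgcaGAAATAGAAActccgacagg
BST2, ISRE core, chr19:17405735-17405764: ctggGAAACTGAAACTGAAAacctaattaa
OAS3, ISRE core, chr12:112938452-112938481: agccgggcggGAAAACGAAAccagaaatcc
DDX60, ISRE core, chr4:168318786-168318815: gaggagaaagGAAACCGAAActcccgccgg
IFI27, ISRE core, chr14:94110631-94110660: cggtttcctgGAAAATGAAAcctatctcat
IRF1, GAS core, chr5:132490878-132490907: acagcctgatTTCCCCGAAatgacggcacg
The first base of the core nearest the start site lies 73 bases before it in IFI44L, 136 in SAMD9, 18 in IFI44, 93 in IFI6, 124 in BST2, 12 in OAS3, 53 in DDX60, 95 in IFI27 and 124 in IRF1. In BST2 the other core, 130 bases before the start site, overlaps it. IFI16, STAT2, OAS1 and ADAR, which also changed in a line, had no ISRE core in their windows.

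In SK-N-BE2, 12 µM STM2457 moved the genes in both directions. OAS3, OAS1, IRF3, ADAR and MAVS rose, and IRF1, DDX60, BST2, IRF7, IFI27 and IFIT2 fell. These 11 of 25 tested genes are 44%, below the 54.7% of all 14013 genes that changed. The 5 that rose compare with 26.9% of all genes and the 6 that fell with 27.8%. The median log2 fold change of the 25 was 0.13, and that of all genes -0.02.

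Among sensors, ADAR went from 344, 329 and 296 CPM with DMSO to 504, 490 and 458 with STM2457, a log2 fold change of 0.55 ± 0.09 (edgeR adjusted p = 0.000171). MAVS, the adaptor of RIG-I and MDA5, rose 1.25-fold, from 122, 103 and 107 CPM to 142, 146 and 138 (adjusted p = 0.00527). All treated libraries of both genes lay above all controls. DDX60 fell from 82, 93 and 68 reads to 22, 56 and 14, without overlap but with a wide spread among treated libraries. Its log2 fold change of -1.42 ± 0.43 (adjusted p = 0.0123) lost its call without the first or the third STM2457 library (adjusted p = 0.0536 and 0.0505) and was -2.22 without the second. IFI16 did not pass the test at a 1.08-fold difference, though its libraries did not overlap, and neither did DDX58.

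Of the 25 tested genes, the transcription factor IRF1 had the largest fall in this line. IRF1 (chr5:132481609-132490777), a factor that interferons themselves induce, went from 6.21, 7.61 and 7.48 CPM to 1.46, 0.957 and 1.54, a 5.5-fold fall (log2 fold change -2.46 ± 0.20, edgeR adjusted p = 5.06e-07). IRF7, the factor that amplifies the production of interferon, went from 1.96, 2.33 and 3.25 CPM to 1.07, 0.586 and 1.41 (log2 fold change -1.33 ± 0.32, adjusted p = 0.00288). IRF3 moved up instead, from 11.7, 12.7 and 13.0 CPM to 21.0, 16.7 and 19.5 (log2 fold change 0.58 ± 0.11, adjusted p = 0.000717). The groups did not overlap for any of the 3. STAT2 and IRF9 had log2 fold changes of 0.13 and 0.23 and did not pass, although STAT2 did without the first control library (0.28, adjusted p = 0.0222). For IRF1, 22.1% of the exon length is shared with genes on the other strand, among them IRF1-AS1.

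Both tested OAS genes rose. OAS3 went from 24.9, 21.9 and 22.9 CPM to 65.3, 69.8 and 59.7, a 2.73-fold rise (log2 fold change 1.45 ± 0.09, edgeR adjusted p = 5.46e-08). OAS1 went from 14.9, 19.3 and 18.5 CPM to 31.9, 32 and 30.8, a 1.75-fold rise (log2 fold change 0.81 ± 0.11, adjusted p = 3.80e-05). Treated libraries were above all controls in both. Their neighbour OAS2 went from 10 to 2 reads.

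Among the effectors, BST2 (chr19:17402939-17405630) fell from 4.23, 5.51 and 5.35 CPM to 2.18, 1.66 and 2.00 (log2 fold change -1.41 ± 0.19, edgeR adjusted p = 3.82e-05). IFI27, a small mitochondrial protein, fell from 1.84, 2.35 and 2.18 CPM to 0.794, 1.02 and 0.837 (log2 fold change -1.30 ± 0.25, adjusted p = 0.000723). IFIT2 fell from 8.32, 10.2 and 5.75 CPM to 2.60, 3.79 and 4.76 (log2 fold change -1.16 ± 0.23, adjusted p = 0.000912). In each of the 3 the lowest control was above the highest treated library. IFIT1 and IFIT3, beside IFIT2 in the genome, had log2 fold changes of 0.01 and 0.63 and were not called, and no gene of the ISG15 pathway passed edgeR's test (0 of 3 also at an unadjusted p under 0.05, and 0 with DESeq2). HERC5, the ligase that attaches ISG15, passed without the second control library (log2 fold change 1.53, adjusted p = 0.0256). SAMD9 had 226 reads with DMSO and 347 with STM2457, without overlap, but missed the threshold (adjusted p = 0.0564), which it passed in 4 of the alternatives tried.

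In NGP, 1 µM STM2457 brought on genes that control cells did not express. IFI16, SAMD9 and IFI44L went from 0 reads in all 3 control libraries to reads in all 3 treated ones. IFI44, BST2, IFI6, IFIT2, STAT2, IRF9 and IFIT1 rose as well, and only IRF1 fell. The 11 called of 25 tested genes (44%) are close to the 41.7% of all 13610 genes, but 10 of them rose, against 19.4% of all genes higher and 22.2% lower. The median log2 fold change of the 25 was 0.54, and that of all genes -0.03. Setting genes at 0 reads to their lower bound cannot move the median of the 25, because these bounds lie above it. IFI16, SAMD9 and IFI44L entered the test only through their treated libraries, and so did IFI44, with 4, 2 and 6 reads with DMSO. The presence of these genes among the called, and their weight in the median, therefore says little about the set. With a mean of at least 1 CPM asked of each gene, 6 of 15 were called, 5 of them higher. The share of all genes under that filter was not counted, so these calls cannot be set against it.

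The levels reached were low. IFI16 had 18, 31 and 28 reads, or 0.384, 0.663 and 0.552 CPM, at least 27.2-fold above the controls (edgeR adjusted p = 0.00136). SAMD9 (chr7:93099513-93118023) had 14, 26 and 14 reads, at least 19.1-fold (adjusted p = 0.00327). IFI44L (chr1:78619922-78646145), a negative regulator of interferon signalling, had 16, 14 and 22 reads, at least 18.4-fold (adjusted p = 0.00232). For IFI16 this was far under the level of SK-N-BE2, where the mean with STM2457 was 98.3 CPM against 0.533 in NGP. Of all 19923 genes, 7 had 0 reads in NGP with DMSO and 50 or more with STM2457, and IFI16, SAMD9 and IFI44L are 3 of the 7. That threshold was chosen after the values were seen and lies just under the lowest of the 3 totals (52 reads, for IFI44L). The place of these genes among the 7 was set by that choice, so the count is no test of the set.

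Neighbouring genes did not all follow. IFI44 (chr1:78649796-78664078), next to IFI44L, rose from 4, 2 and 6 reads to 49, 20 and 42, a log2 fold change of 3.23 ± 0.56 (edgeR adjusted p = 0.00232). In contrast, SAMD9L, the paralog beside SAMD9 on chromosome 7, stayed at 0 reads in all 6 NGP libraries. The upstream stretches of that pair are shown because the 2 genes differed. SAMD9 holds 1 ISRE core, in capitals, and SAMD9L holds no exact match to either core. Both are read 5′ to 3′ on the minus strand of GRCh38.p14 from 250 bases before the RefSeq start site, and SAMD9 stops 45 bases before it, where exons begin in the deposited annotation.
SAMD9, chr7:93118024-93118229: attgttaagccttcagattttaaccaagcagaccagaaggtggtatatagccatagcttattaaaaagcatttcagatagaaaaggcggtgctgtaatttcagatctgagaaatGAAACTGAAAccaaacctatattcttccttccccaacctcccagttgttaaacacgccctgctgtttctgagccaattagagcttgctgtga
SAMD9L, chr7:93148386-93148635: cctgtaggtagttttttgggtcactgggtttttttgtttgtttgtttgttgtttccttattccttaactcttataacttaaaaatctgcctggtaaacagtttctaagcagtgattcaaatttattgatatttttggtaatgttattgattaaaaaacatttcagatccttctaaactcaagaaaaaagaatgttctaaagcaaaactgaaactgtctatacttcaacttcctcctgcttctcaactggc
In SK-N-BE2 both were transcribed, SAMD9 at 226 and SAMD9L at 22 reads with DMSO. Near matches to a core were not searched, and whether the core bears on how these genes responded was not tested.

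Factors of the signalling complex rose with these genes. STAT2 (chr12:56341597-56360167) went from 18.1, 18.4 and 17.5 CPM to 43.1, 38.3 and 44.6, a 2.30-fold rise (log2 fold change 1.20 ± 0.11, edgeR adjusted p = 9.40e-05). IRF9, its DNA-binding partner, went from 1.19, 0.724 and 0.369 CPM to 1.60, 1.78 and 1.72 (log2 fold change 1.13 ± 0.39, adjusted p = 0.0469). Both sets of libraries were separate, but the call for IRF9 was lost when any of 5 of the 6 libraries was left out (adjusted p = 0.0942 to 0.105), and 42.2% of its exon length is shared with another counted gene. IRF1 fell from 9.19, 10.1 and 7.31 CPM to 1.17, 1.43 and 1.44, a 6.68-fold fall (log2 fold change -2.74 ± 0.20, adjusted p = 3.22e-05). IRF7 went from 2.60, 1.92 and 1.87 CPM to 1.54, 1.16 and 0.592 without overlap, and its adjusted p was 0.0539. IRF3 stood at 37.7, 17.3 and 21.1 CPM with DMSO and at 32.9, 33.2 and 32.4 with STM2457. Its log2 fold change of 0.35 (adjusted p = 0.302) became 0.75 (adjusted p = 0.000178) without the first control library.

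Among effectors, BST2 rose from 1.57, 1.21 and 1.19 CPM to 3.52, 3.74 and 3.67 (log2 fold change 1.44 ± 0.21, edgeR adjusted p = 0.000920). IFI6 (chr1:27666064-27672198), a small protein that guards membranes against viral replication, rose from 2.18, 1.33 and 1.67 CPM to 4.49, 6.53 and 3.16 (log2 fold change 1.42 ± 0.31, adjusted p = 0.00650). All treated libraries lay above all controls for both. The exons of IFI6 share 25.7% of their length with the non-coding gene LINC02574 on the same strand. IFIT1 went from 1.91, 1.21 and 1.11 CPM to 2.54, 1.99 and 3.17 (adjusted p = 0.0465), and IFIT2 from 0.258, 0.450 and 0.194 to 0.833, 0.620 and 0.730 (adjusted p = 0.0392). Both calls depended on single libraries, since IFIT1 lost its call in 4 of 6 fits without a library and IFIT2 in 5 of 6, with adjusted p-values up to 0.171.

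The other 14 tested genes did not pass the test in NGP. ISG15 had means of 1.81 ± 0.609 CPM with DMSO and 1.10 ± 0.279 with STM2457 (adjusted p = 0.115), and was called lower without the second control library (log2 fold change -0.99, adjusted p = 0.0345). USP18, which removes ISG15 from its targets, had 0.885 ± 0.308 and 1.31 ± 0.214 CPM. CMPK2, RSAD2 and XAF1, the genes higher in NGP than in SK-N-BE2, had log2 fold changes of -0.27, -1.05 and -0.33 and were not called. DDX58, MAVS, ADAR and OAS1 were not called either. Of 6 leukocyte markers, PTPRC and CD3E had 0 reads in every NGP library, while the sum of the 6 went from 0.293 to 1.07 CPM with DMSO to 1.39 to 1.90 CPM with STM2457, mostly through LYZ. Of 4 fibroblast and endothelial markers, PECAM1 was at 0 in NGP, and the sum of the 4 went from 25.6 to 33.7 CPM to 136 to 153 CPM, mostly through PDGFRB. In SK-N-BE2 the same sums were 1.69 to 2.14 and 1.81 to 2.32 CPM for leukocytes and 82.1 to 91.7 and 141 to 153 CPM for fibroblasts and endothelium, with DMSO and STM2457. Within these sums PTPRC rose 3.46-fold and CD14 fell 1.99-fold, and DCN and PDGFRB rose 2.12-fold and 1.25-fold while PECAM1 and VWF fell 2.25-fold and 3.66-fold. Their part in these results was not tested.

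**Figure D3:**
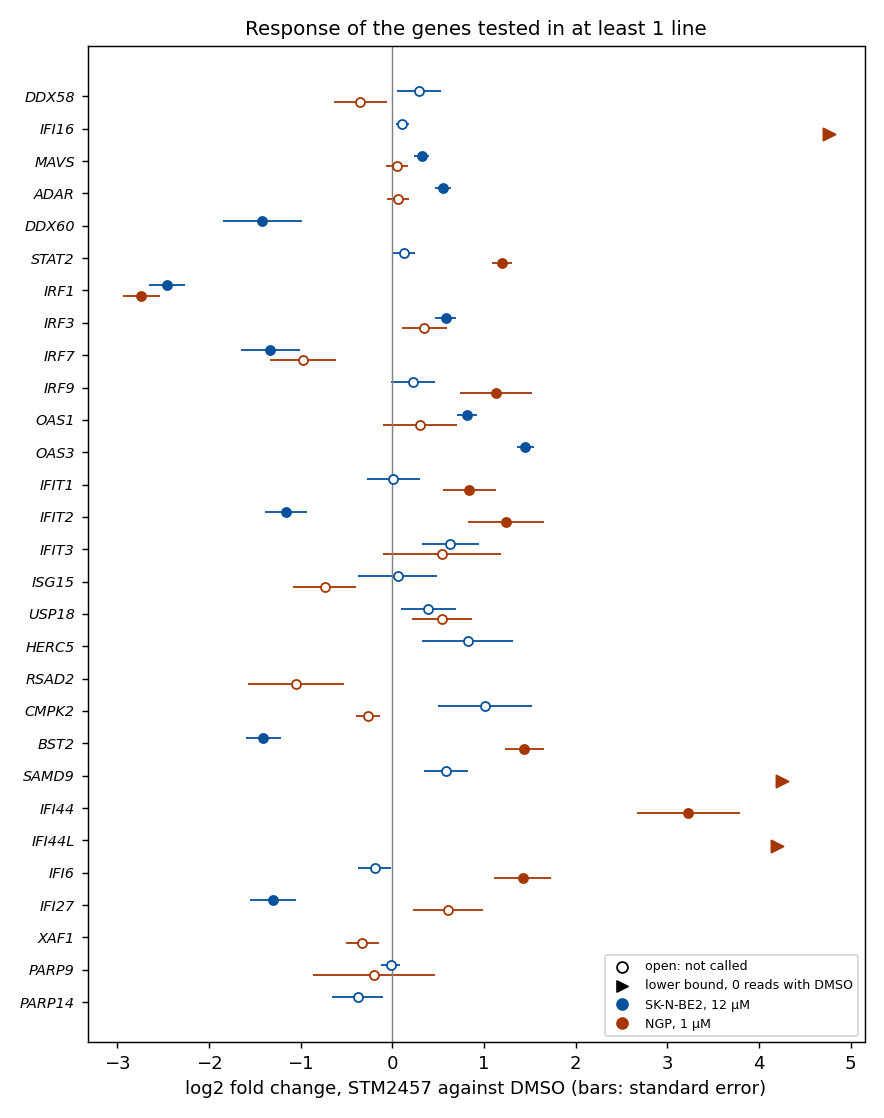
Log2 fold change with STM2457 against DMSO (x axis, bars of 1 standard error) of the 29 genes tested in at least 1 line, in SK-N-BE2 (blue) and NGP (orange), filled where the adjusted p was under 0.05, with triangles for lower bounds where DMSO had 0 reads. IRF1 lies far left in both lines, while BST2 and IFIT2 lie on opposite sides of 0.

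Side by side, the lines shared few calls. Of 21 genes tested in both lines, IRF1 was the only gene called in the same direction, and BST2 and IFIT2 were called in opposite directions. IRF7, at log2 fold changes of -1.33 and -0.98, was also called in NGP under 5 alternatives that keep all libraries, and IRF3 rose in both lines without the first NGP control library. Another 6 were called only in SK-N-BE2 (MAVS, ADAR, IRF3, IRF7, OAS1 and IFI27), 6 only in NGP (IFI16, STAT2, IRF9, IFIT1, SAMD9 and IFI6) and 6 in neither (DDX58, IFIT3, ISG15, USP18, CMPK2 and PARP9). A call in 1 line alone does not show that the lines differ, so the response of SK-N-BE2 minus that of NGP was tested on its own. This difference passed for 10 of 29 genes (34.5%), close to the 30.9% of all 14731 genes. Among the 29, IFI44L had 0 reads in all SK-N-BE2 libraries and HERC5 had 0 in all NGP libraries. For both, a missing call in edgeR does not show that the responses were alike, and IFI44L passed with DESeq2 (adjusted p = 0.0365). More positive in SK-N-BE2 were 2, against 17.0% of all genes, and more negative were 8, against 13.9%. Line, dose and sequencing run differ together, so their shares in a difference cannot be told apart.

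Among genes with reads in every group, BST2 had the lowest p of the difference, at a log2 difference of -2.83 ± 0.28 (edgeR adjusted p = 6.06e-06). With DMSO it was higher in SK-N-BE2, and with STM2457 it was higher in NGP, at 3.65 ± 0.112 CPM against 1.95 ± 0.263. IFIT2 differed by -2.39 ± 0.47 (adjusted p = 0.00155), but its mean remained higher in SK-N-BE2, at 3.72 ± 1.08 against 0.728 ± 0.106 CPM. IFI27 fell in SK-N-BE2 and went from 0.380 ± 0.0932 to 0.592 ± 0.136 CPM in NGP (difference -1.90 ± 0.43, adjusted p = 0.00398). STAT2 and IFI6 rose in NGP and were not called in SK-N-BE2, with differences of -1.06 ± 0.17 and -1.60 ± 0.38 (adjusted p = 0.000382 and 0.00617).

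For IFI16, SAMD9 and XAF1 the difference passed too (adjusted p = 4.01e-06, 0.000612 and 0.00963), and its size is not given because a group had 0 reads. The 2 genes with a more positive response in SK-N-BE2 were ADAR (difference 0.49 ± 0.15, adjusted p = 0.0220) and CMPK2 (difference 1.29 ± 0.45, adjusted p = 0.0418). Both calls depended on single libraries, for ADAR in 4 and for CMPK2 in 8 of the 12 fits that left a library out. For IRF1 the difference was 0.29 ± 0.29 (adjusted p = 0.485). Without the first NGP control library, 13 genes passed, with MAVS, IRF9 and IFIT1 added (adjusted p = 0.0258, 0.0140 and 0.0419). The share of all genes in that fit was not counted. The baseline comparison shares its DMSO libraries with both responses, so the values of a gene in the 3 comparisons are not independent of each other.

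**Figure D4:**
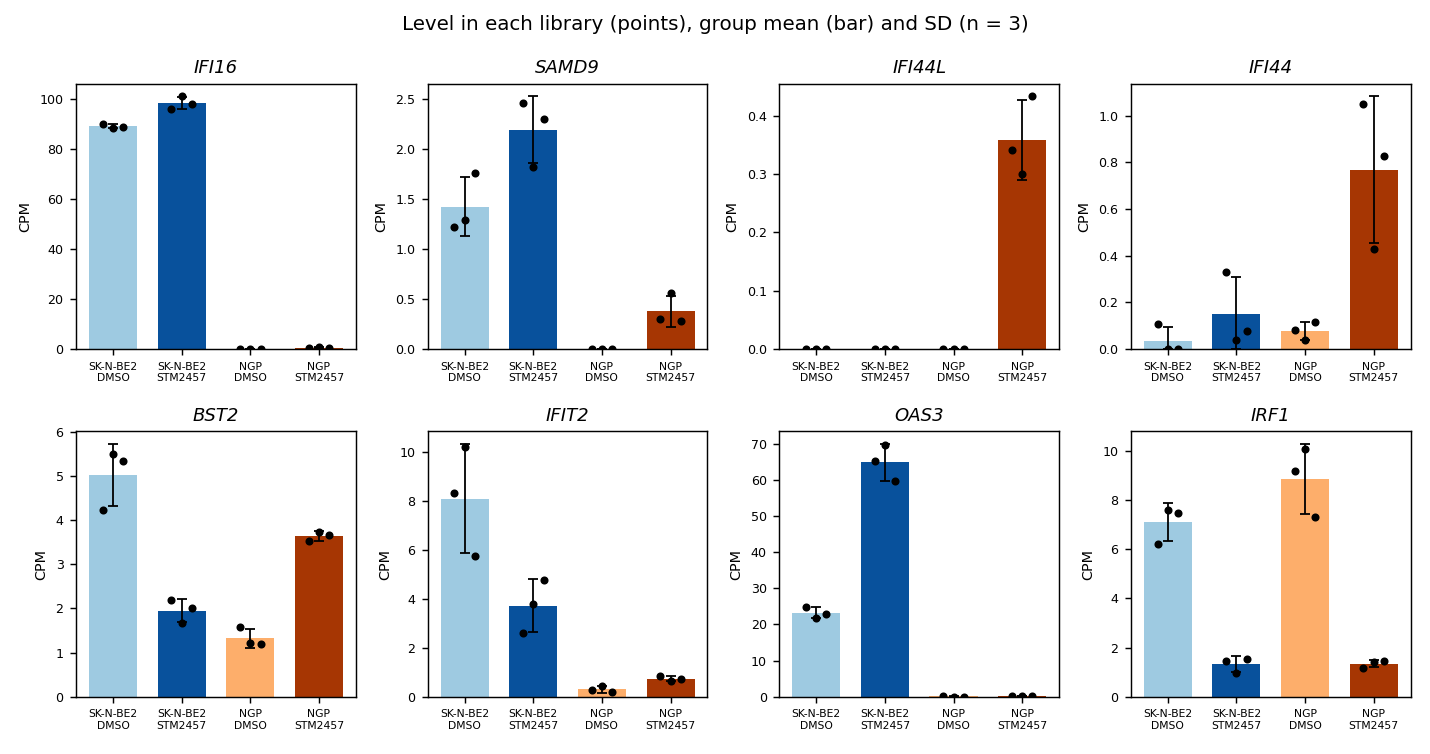
Level in CPM of 8 genes in each group, with a point for each library, a bar for the mean of 3 and a whisker for the SD, on a separate axis from 0 for each gene. IFI16, SAMD9 and IFI44L are at 0 in NGP with DMSO, BST2 goes down in SK-N-BE2 and up in NGP, and IRF1 goes down in both lines.

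The interferon genes gave almost no signal. Of 21 genes for type I, II and III interferons, 17 had 0 reads in all 12 libraries and none could be tested. The other 4 were IFNA5, IFNA7, IFNK and IFNL2, with at most 4 reads in a group. For a gene at 0 in a group, 3 reads over its libraries are the limit that the depth allows. Counting had no option for multi-mapping reads, so reads that match several interferon genes alike may be missing at any depth. CXCL11, a chemokine like CXCL10, had 0 reads in SK-N-BE2 with DMSO and 27 with STM2457, at least 9.07-fold.

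Receptors, kinases and regulators of the pathway had more than 3 reads in every group except IRF8, with 0 reads in SK-N-BE2 and at most 2 in NGP, and IFNLR1, with 0 in NGP with DMSO. Of 20 genes, 19 were tested in SK-N-BE2, where 5 rose and 2 fell, and 18 in NGP, where 6 rose and 2 fell. The called shares of 36.8% and 44.4% compare with 54.7% and 41.7% of all genes, and the median log2 fold changes were 0.07 and 0.09. IFNGR1, the ligand-binding chain of the interferon gamma receptor, fell from 60.7 ± 7.84 to 41.8 ± 0.407 CPM in SK-N-BE2 (edgeR adjusted p = 0.000274), while NGP went from 54.3 ± 1.65 to 30.8 ± 3.03 CPM (adjusted p = 0.000602). NLRC5, an activator of MHC class I genes, rose in both lines. In SK-N-BE2 it had 1555 reads with DMSO and 2364 with STM2457, and in NGP, at a far lower level, 36 and 179 (adjusted p = 0.000519 and 0.00126).

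The largest rise among these regulators was that of SOCS3 in NGP. This feedback inhibitor of JAK signalling went from 0.249 ± 0.129 to 5.08 ± 0.425 CPM (log2 fold change 4.31 ± 0.33, edgeR adjusted p = 3.88e-05). In SK-N-BE2 it was not called, and its responses differed between lines (adjusted p = 3.04e-05), as did those of NLRC5 (adjusted p = 0.000278). IRF5 fell in NGP, by 1.75 on the log2 scale (adjusted p = 0.00214), and its responses differed too (adjusted p = 0.0138). In control cells 7 of 19 tested genes were higher in SK-N-BE2 and 3 lower, together 52.6% against 64.8% of all genes. SOCS1, the other main feedback inhibitor, was lower in SK-N-BE2 (0.189 ± 0.0134 CPM against 1.29 ± 0.600), and IRF2 was higher (16.6 ± 0.475 against 7.08 ± 0.950).

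Among 22 other sensors and adaptors, 17 were tested in SK-N-BE2 (3 rose, 5 fell, median log2 fold change -0.08) and 13 in NGP (5 rose, 1 fell, median 0.54). The called shares were 47.1% and 46.2%, against 54.7% and 41.7% of all genes. STING1, the adaptor of the DNA sensor cGAS, had 6 reads in NGP with DMSO and 14, 52 and 15 with STM2457, a log2 fold change of 3.74 ± 0.91 (edgeR adjusted p = 0.0112). It was 2.85 (adjusted p = 0.0420) without the second treated library and 4.66 without the first control library. In SK-N-BE2 STING1 fell from 573 to 402 reads (adjusted p = 0.0287), a call lost in 3 of 6 fits without a library (adjusted p = 0.0600 to 0.108). TRIM25, the ubiquitin ligase linked to RIG-I, likewise fell in SK-N-BE2, from 95.5 ± 7.92 to 70.3 ± 1.19 CPM, and rose in NGP, from 15.4 ± 1.39 to 26.0 ± 1.25. The responses of both genes differed between lines (adjusted p = 0.00154 and 1.86e-05), STING1 by -4.27, which was -3.34 and -5.20 without those NGP libraries. So did that of TBK1, the kinase that activates IRF3, which was at 43.3 ± 1.49 and 42.1 ± 1.30 CPM in SK-N-BE2 and rose in NGP from 25.5 ± 3.84 to 38.3 ± 1.39 (adjusted p of the difference = 0.00555).

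IKBKE, the kinase related to TBK1, rose in NGP from 235 to 354 reads (edgeR adjusted p = 0.0327), and SK-N-BE2 had only 4 reads with DMSO. RNASEH2A, a subunit of the enzyme that removes RNA from hybrids with DNA, also rose. SK-N-BE2 went from 69 to 180 reads and NGP from 317 to 475 (adjusted p = 0.00500 and 0.0376), and its counts are uncertain because 30.8% of its exon length is shared with the counted gene THSD8. In NGP the calls for IKBKE and RNASEH2A were each lost in 5 of 6 fits without a library (adjusted p up to 0.0945 and 0.117). In control cells, 11 of the 18 tested were higher in SK-N-BE2 and 4 lower, together 83.3% against 64.8% of all genes. MYD88, the adaptor of most Toll-like receptors, had 2752 reads in SK-N-BE2 against 10 in NGP.

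Of 37 other interferon-stimulated genes, 27 were tested in SK-N-BE2 (7 rose, 6 fell) and 18 in NGP (11 rose, 3 fell), with median log2 fold changes of 0.03 and 0.40. The called shares were 48.1% and 77.8%, against 54.7% and 41.7% of all genes. Some genes, such as TRIM5 with 5, 4 and 2 reads with DMSO, entered the NGP test only through their treated libraries. The NGP share and median are therefore partly set by the filter. APOL6 and ISG20 fell in both lines. APOL6 went from 315 to 8 reads in SK-N-BE2, while NGP went from 140 to 21 (edgeR adjusted p = 6.24e-07 and 0.0279). Its NGP call was lost in 3 of 6 fits without a library (adjusted p up to 0.0916), with log2 fold changes from -3.64 without the first to -2.03 without the third treated library, against -2.64 with all. In SK-N-BE2 the value was -5.26, and -6.06 without the second treated library. ISG20, an exonuclease, went from 323 to 127 reads and from 482 to 79 (adjusted p = 0.000583 and 0.00418). GBP2, a guanylate-binding protein, rose in both, by log2 fold changes of 1.18 ± 0.22 and 2.45 ± 0.65 (adjusted p = 0.000501 and 0.0158), the second being lost without the first treated NGP library (adjusted p = 0.0685).

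TRIM5, IFITM2 and IFITM3, which restrict the entry or uncoating of viruses, rose in NGP, by log2 fold changes of 3.62 ± 0.51, 2.86 ± 0.29 and 2.37 ± 0.32. Their responses differed between lines (edgeR adjusted p = 0.000287, 0.00127 and 0.000239). IFITM2 shares 22.7% of its exon length with the counted gene IFITM1, so reads of the family may be split or lost. SHFL, an inhibitor of ribosomal frameshifting, had 10 reads in NGP with DMSO and 0 with STM2457, against 1332 and 1076 in SK-N-BE2 (adjusted p of the difference = 0.0159). In control cells, 20 of 26 tested genes were higher in SK-N-BE2 and 2 lower, together 84.6% against 64.8% of all genes, with a median log2 difference of 2.12. Genes such as SP110, PARP12 and NMI entered this test only through SK-N-BE2, so the share and median are partly set by the filter. SP110 had 242 reads in SK-N-BE2 and 0 in NGP, at least 77.5-fold, while PARP12 had 1887 against 6 and NMI 1193 against 6, all 6 in the third NGP library. Genes on the other strand overlap 27.4% of the exon length of SP110 and 27.1% of that of SHFL, so their reads cannot be told apart without strand.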

How the data were processed

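Polyadenylated RNA of 12 libraries, grouped by their titles, was analysed. The authors' counting, per the file headers, used featureCounts 2.0.5 on GENCODE 33 exons of protein-coding genes, with paired mode set and no option for strand, multi-mapping reads or read pairs. The submitters' processing notes name GRCh38, FastQC 0.11.5, Trimmomatic 0.36, HISAT2 2.1.0 and Subread 1.5.3. The deposited values are raw counts. From them, edgeR 4.0.16 (R 4.3.3) fitted each comparison with filterByExpr (minimum count 10), TMM scaling and the quasi-likelihood test, adjusted by Benjamini-Hochberg over all genes tested, with a threshold of 0.05, and was tested on simulated data. Standard errors came from the fold change and its F statistic. Where a group had 0 reads, a fold is a lower bound against 3 reads over its libraries, and with 1 to 3 reads a ratio with an exact 95% Poisson interval. Both cover counting error only and treat reads as independent, although a pair can add 2 (72.1% to 75.4% of counts from 1 to 20 were even). Alternatives were size factors of DESeq2, no filter, a minimum mean of 1 CPM, DESeq2 1.42.0, leaving out each library, a replicate block, counts halved and a joint fit of all libraries. Exon overlaps came from GENCODE 44.

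The genes and lists were chosen with earlier results of these data known. Values per library are given for genes called with at least 1 CPM in a group, those that left 0 reads and those whose responses differed. From each other list, up to 3 called genes per comparison with the largest change were named among those with at least 1 CPM in a group. CXCL11, DTX3L, IRF8, IFNLR1 and the interferon genes with reads were named after their values were seen. Some genes of the lists and markers are not reported here.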

Additional observations from a re-analysis of the deposited data

Results flagged for a closer look

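No group of 3 libraries was tested for an outlying one. For 10 genes the response of SK-N-BE2 to 12 µM STM2457 differed from that of NGP to 1 µM, tested as the difference of the 2 responses over all 12 libraries with edgeR (Benjamini-Hochberg over all genes tested). The more negative responses of SK-N-BE2 were those of IFI16 (adjusted p = 4.01e-06), BST2 (6.06e-06), STAT2 (0.000382), SAMD9 (0.000612), IFIT2 (0.00155), IFI27 (0.00398), IFI6 (0.00617) and XAF1 (0.00963). The more positive ones were those of ADAR (0.0220) and CMPK2 (0.0418). IFI16 and SAMD9 had 0 reads in NGP with DMSO and 77 and 54 with STM2457. XAF1 had 14 reads in SK-N-BE2 with DMSO and 0 with STM2457, against 853 and 653 in NGP. ADAR, CMPK2, BST2, STAT2, IFIT2, IFI27 and IFI6 had reads in every group.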

How the results depend on the processing

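Every alternative listed was run. DESeq2 also changes the scaling and the spread estimate, and the joint fit, which is already the design of the difference, also changes the genes tested and the scaling. The genes called numbered 11 for SK-N-BE2, 11 for NGP, 19 between control cells and 10 for the difference of responses. They stayed within 1.5 times of these numbers except in NGP with a mean of at least 1 CPM, where 6 were called and 15 tested. Leaving out a library gave 10 to 13 for SK-N-BE2, 8 to 11 for NGP, 19 to 21 between control cells and 8 to 13 for the difference. Shares of all genes were not counted for these alternatives. Same-numbered libraries did not deviate together (correlations -0.06, 0.09 and 0.03 for SK-N-BE2, 0.01, -0.07 and 0.02 for NGP, -0.26, -0.08 and -0.06 for control cells). These values showed no pairing by number, but with 3 libraries per group they cannot exclude a small shared effect. A fit with a replicate block called 11, 10, 19 and 10, and IFIT1 and IFIT2 in NGP were not called in it (adjusted p = 0.0568 and 0.0690). Calls that held under every alternative in which the gene was tested numbered 10 of 11 in SK-N-BE2 (not DDX60), 8 of 11 in NGP (not IFIT1, IFIT2 and IRF9), 18 of 19 between control cells (not ADAR) and 8 of 10 for the difference (not ADAR and CMPK2). Of the 8 in NGP, IFI16, SAMD9, IFI44L and IFI44 were under 1 CPM there, so the minimum mean of 1 CPM left them untested. Some NGP genes were also not tested with counts halved. IRF7 in NGP passed in 5 alternatives other than leaving out a library (adjusted p = 0.0237 to 0.0482). Direction turned only for genes that were not called: IFIT1 in SK-N-BE2 with the replicate block (-0.01), PARP9 in SK-N-BE2 in the joint fit (0.02), OAS3 in the difference with DESeq2 (-0.03), and 19 values when a library was left out. The ranges of these, on the log2 scale, were, in SK-N-BE2, -0.24 to 0.16 for IFIT1, -0.21 to 0.52 for ISG15, -0.35 to 0.02 for IFI6 and -0.06 to 0.04 for PARP9. In NGP they were -0.04 to 0.17 for MAVS, -0.05 to 0.17 for ADAR, -0.13 to 0.99 for IFIT3 and -0.59 to 0.29 for PARP9. Between control cells they were -0.13 to 0.34 for DDX58, 0.00 to 0.20 for MAVS and -0.31 to 0.12 for IFIT1. In the difference they were -4.12 to 1.30 for DDX60, -0.18 to 0.45 for IRF3, -0.90 to 0.60 for OAS3, -0.36 to 0.77 for IFIT3, -0.47 to 0.05 for USP18, -1.06 to 0.84 for RSAD2, -2.65 to 2.70 for IFI44 and -0.28 to 0.63 for PARP9. The causes were not tested. The same alternatives, added for the named genes of the other lists after seeing the data, kept 49 of 62 called values. Of the calls given in the text, the replicate block lost IKBKE, RNASEH2A and APOL6 in NGP (adjusted p = 0.0777, 0.0788 and 0.0507), and the joint fit lost STING1 in SK-N-BE2 and IKBKE in NGP (0.321 and 0.153). Depth limits IFIH1, TLR3, OAS2, OASL, MX1, TRIM22, SAMD9L and CXCL10, which were tested in neither line.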
